A study of Mus musculus with 6 samples.

Results

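The brush border is the layer of microvilli on the apical face of the intestinal epithelium, and its membrane carries enzymes whose catalytic domains face the gut lumen. The 7 genes described here encode such apical membrane peptidases and hydrolases: the aminopeptidases Anpep and Enpep, the dipeptidase Dpep1 and the dipeptidyl peptidase Dpp4, the meprin subunits Mep1a and Mep1b, and the alkaline phosphatase Alpi. They were chosen by function from the 14701 genes tested, with earlier results of these data known. Every array probe with a matching gene name or transcript accession was taken, which gave 10 probes. Membrane peptidases of this kind cut the last peptide bonds before amino acids and small peptides are absorbed, and intestinal alkaline phosphatase removes phosphate groups, including those of bacterial lipopolysaccharide. In the gut they are best known from the small intestine, where several serve as markers of mature absorptive cells, and some of them are also made by colonocytes.

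The samples were scraped mucosa of the colon from Tlr2 knockout mice and from wild-type mice, both on the C57BL/6 strain and both at postnatal day 90. Tlr2 encodes a cell-surface receptor for bacterial lipoproteins, and the labels name no treatment, sex or detail of the knockout allele. RNA was measured on 4 two-colour arrays, each with 1 knockout and 1 wild-type sample, named here as pairs 1, 2, 4 and 5 after the number of the knockout sample. The knockout sample carried the dye Cy3 in pairs 1 and 2 and Cy5 in pairs 4 and 5, and no label says outright that each sample code is a separate animal, so p-values measure only the spread between these samples, which may be technical.

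Values are normalised log2 intensities of each sample, or log2 ratios of knockout over wild type within an array, given in the order of pairs 1, 2, 4 and 5. Tlr2 itself was at 7.05, 6.54, 6.87 and 7.71 in the knockout samples, against 11.47, 11.85, 12.37 and 11.90 in the wild-type samples, so Tlr2 read lower in every sample labelled knockout than in any labelled wild type. Of 43379 spots, 67.7% to 71.9% were well above background in the knockout channels and 63.3% to 76.5% in the wild-type channels. All 4 arrays lay on 1 slide, so slide could not be tested as a batch, and precision is limited by there being only 4 arrays. The arrays did not all vary alike: across genes, the log2 ratios of pair 1 correlated at -0.21, -0.42 and -0.10 with those of pairs 2, 4 and 5, whereas pairs 2, 4 and 5 correlated at 0.42 to 0.57 with each other. Of the epithelial markers, 7 of 8 were measured and all 7 were saturated on at least 1 array, so epithelial transcripts read at the top of the scale and the amount of epithelium could not be compared between samples.

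All 10 probes were well above background in both channels of all 4 arrays. Transcripts read by the probes of the 7 genes were thus detected in the colonic mucosa of both genotypes. In limma, with Benjamini-Hochberg adjustment over all genes tested, none of the 7 genes passed an adjusted p of 0.05. Neither did any other gene, higher (0%) or lower (0%). Tlr2 itself, at a mean log2 ratio of -4.86, had an adjusted p of 0.314 in limma. With 4 arrays, an adjusted p above 0.05 thus does not show that a gene is unchanged. At an unadjusted p under 0.05, 1 of the 7 genes was lower in the knockout, namely Anpep, and none was higher, against backgrounds of 4.26% lower and 3.86% higher among all genes. The submitters' own rule asks for a change over 1.6-fold on at least 2 arrays with no array on the opposite side. It took Anpep as lower and no member as higher, against 0.714% and 0.762% of all genes. The ratio had the same sign on all 4 arrays for 2 members, Anpep with the knockout lower (8.41% of all genes) and Mep1b with the knockout higher (7.18%). For none of the 7 genes did the 4 knockout levels lie wholly apart from the 4 wild-type levels, which 2.46% of all genes did with the knockout lower and 2.2% with it higher. The median of the 7 mean log2 ratios was 0.17, and that of all genes was -0.0085.

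**Figure D1:**
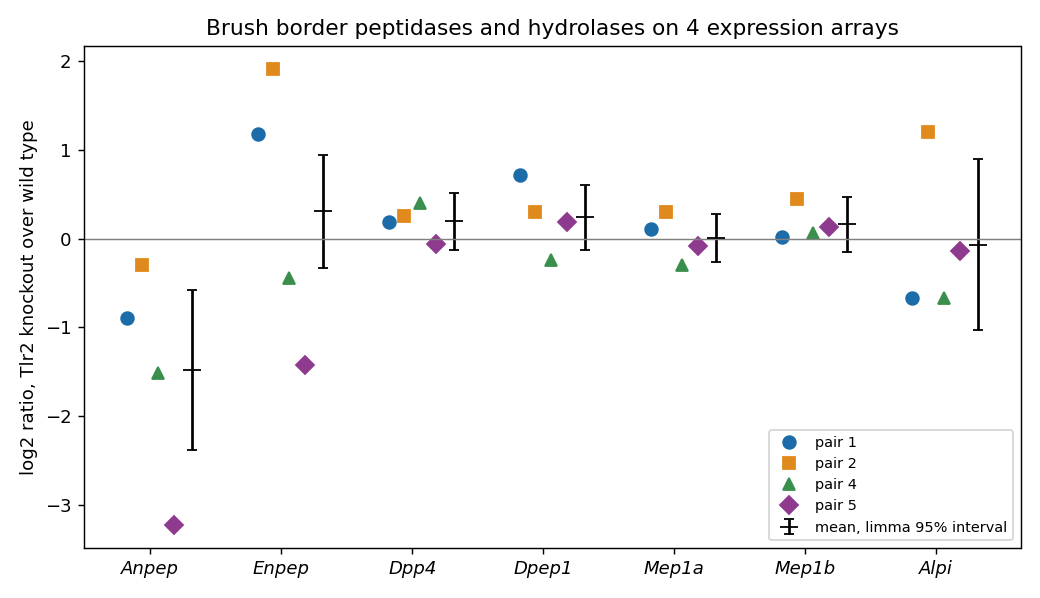
Log2 ratio of knockout over wild type (vertical axis) of the 7 enzymes on the 4 arrays, with 1 coloured marker per pair, and in black the mean of the 4 arrays with its limma 95% interval. The ratios of Anpep lie below 0 in all 4 pairs, those of Enpep lie from -1.42 to 1.92, and those of Dpp4, Dpep1, Mep1a and Mep1b stay within 0.72 of 0.

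Anpep encodes aminopeptidase N, also known as CD13, a zinc metalloenzyme that removes neutral amino acids from the amino end of peptides. Its 1 probe (A_51_P231184, gene on chromosome 7) read 8.98, 9.01, 9.01 and 10.80 in the knockout samples, against 9.87, 9.30, 10.53 and 14.02 in the wild-type samples. In each pair the knockout was the lower, and the levels overlapped because the knockout sample of pair 5 lay above 3 of the 4 wild-type samples. The wild-type sample of pair 5 was the highest of all 8 samples, and the knockout sample of that pair was the highest of its genotype. The means were 9.45 ± 0.899 in the knockout samples and 10.93 ± 2.12 in the wild-type samples (SD, n = 4 each).

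The log2 ratios of Anpep were -0.89, -0.29, -1.52 and -3.23, with a mean of -1.48 ± 1.27 (SD, n = 4), which is 2.79-fold lower in the knockout. Only 0.17% of all genes had a larger mean in absolute terms, and 1.05% had a larger SD between arrays. The limma standard error was 0.328 with a 95% interval from -2.39 to -0.58, the unadjusted p was 0.0102 and the adjusted p was 0.594. The standard error in limma is not that of the 4 ratios alone. The fit first takes out the difference between the dye orientations as a dye effect, and then borrows from the spread of all genes. The interval and p thus treat that difference as dye. Without the dye term the limma adjusted p was 0.567, and over all 15 alternative settings it lay between 0.172 and 1, with the ratio negative in each. Leaving out pair 5 gave a fitted value of -1.06 and leaving out pair 4 one of -1.91. With pair 5 left out, the 3 knockout levels all lay below the 3 wild-type levels, which 5.59% of all genes did in that direction, a comparison chosen after the values of pair 5 were seen. In the authors' deposited table of decreased transcripts, Anpep had knockout over wild-type ratios of 0.443, 0.887, 0.332 and 0.102 and an average of 0.441, and none of the other 6 genes was in their expression tables. In bulk mucosa, fewer cells that make a transcript and less of it per cell cannot be told apart.

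In humans the gene is read from separate promoters in myeloid and epithelial cells, so the annotated start of mouse Anpep need not be the one used in the colon. The upstream sequences of 3 members are shown for how unlike they are in base composition. They are the 250 bases before the annotated start, from RefSeq on build GRCm38.p6, written 5′ to 3′ on the strand of the gene. The capitals mark matches, on either strand, to the TATA box, spelled here as TATAAA, which sits near the start of many tightly regulated promoters. They also mark the binding motif of the GATA family of intestinal transcription factors, searched for as AGATAA.
Anpep (chr7:79848211-79848460, minus strand): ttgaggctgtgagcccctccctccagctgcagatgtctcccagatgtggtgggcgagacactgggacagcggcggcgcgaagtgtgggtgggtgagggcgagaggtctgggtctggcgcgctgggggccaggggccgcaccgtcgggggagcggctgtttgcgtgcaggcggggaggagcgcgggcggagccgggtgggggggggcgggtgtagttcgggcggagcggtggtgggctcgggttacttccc
Enpep (chr3:129332750-129332999, minus strand): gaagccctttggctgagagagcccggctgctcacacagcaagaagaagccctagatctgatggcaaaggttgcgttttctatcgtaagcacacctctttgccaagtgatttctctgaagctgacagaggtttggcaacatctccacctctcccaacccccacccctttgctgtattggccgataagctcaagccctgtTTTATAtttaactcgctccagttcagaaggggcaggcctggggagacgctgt
Dpp4 (chr2:62412232-62412481, minus strand): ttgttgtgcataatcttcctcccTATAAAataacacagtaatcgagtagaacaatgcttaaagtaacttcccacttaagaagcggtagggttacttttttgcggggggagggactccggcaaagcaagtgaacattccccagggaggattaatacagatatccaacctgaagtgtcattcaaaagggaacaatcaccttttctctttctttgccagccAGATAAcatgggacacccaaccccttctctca
Of the bases of the Anpep sequence, 72.8% were G or C, and 5.68% of all promoters of the same length had a higher share. The Enpep sequence had 52.4% and the Dpp4 sequence 43.6%. The search, on both strands, also covered GTTAAT, an HNF1 half-site, and TTTATG, a CDX core, and no match overlapped another. The Anpep sequence held none of the 4 motifs. The TATA box letters stood 52 to 47 bases before the start of Enpep, on the opposite strand, and 227 to 222 bases before that of Dpp4. The GATA site letters stood 32 to 27 bases before the start of Dpp4. Of the members whose sequence is not shown, Alpi held the TATA box letters 33 to 28 bases before its start, on the opposite strand, and Dpep1 and Mep1a held none of the motifs. Of 32851 promoters, 12.4% held the TATA box letters, 9.99% the GATA site, 6.43% the HNF1 half-site and 10.8% the CDX core, so a match is a description and not a site.

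Enpep encodes glutamyl aminopeptidase, also called aminopeptidase A, which removes acidic amino acids from the amino end and converts angiotensin II to angiotensin III. Its probe (A_51_P161830, gene on chromosome 3) read 11.69, 11.72, 10.47 and 11.28 in the knockout samples, against 10.51, 9.80, 10.91 and 12.70 in the wild-type samples. The log2 ratios were 1.18, 1.92, -0.44 and -1.42, so the knockout was higher in pairs 1 and 2 and lower in pairs 4 and 5. Their mean of 0.31 ± 1.52 (SD, n = 4) had a limma 95% interval from -0.33 to 0.95 and an adjusted p of 0.758. The fit takes out the dye effect, so this interval leaves out the split between pairs 1 and 2 and pairs 4 and 5. It is thus narrower than the SD of the 4 ratios would give. Without the dye term the limma adjusted p was 0.935. The sign of the ratio followed the dyes, since the sample in Cy5 was lower than the sample in Cy3 on all 4 arrays, by a log2 difference of -1.18, -1.92, -0.44 and -1.42. In the same limma fit the dye effect of Enpep was -1.24, with an unadjusted p of 0.00549 and an adjusted p of 0.84. Among the 6 genes with no saturated probe, Enpep was lower in Cy5 on all 4 arrays, against 5.49% of all genes, and none was higher in Cy5 on all 4, against 7.63%. Mep1a also read lower in Cy5 on all 4, but its Cy5 channel in pair 1 was saturated, so the sign there is not known. In either direction the dye effect passed an adjusted p of 0.05 for 0% of all genes. Only 0.422% of all genes had a larger SD between arrays than Enpep. Pairs also differ in their samples between the dye orientations, so for a single gene the dye and the sampled mice cannot be told apart.

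For Anpep the same split gave a mean of -0.59 in pairs 1 and 2, with the knockout in Cy3, and of -2.37 in pairs 4 and 5, with the knockout in Cy5. Anpep was thus lower in the knockout in both dye orientations, and its dye effect was -0.89 with an unadjusted p of 0.0522 and an adjusted p of 0.84 in limma. For Enpep the 2 means were 1.55 and -0.93, on opposite sides of 0.

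**Figure D2:**
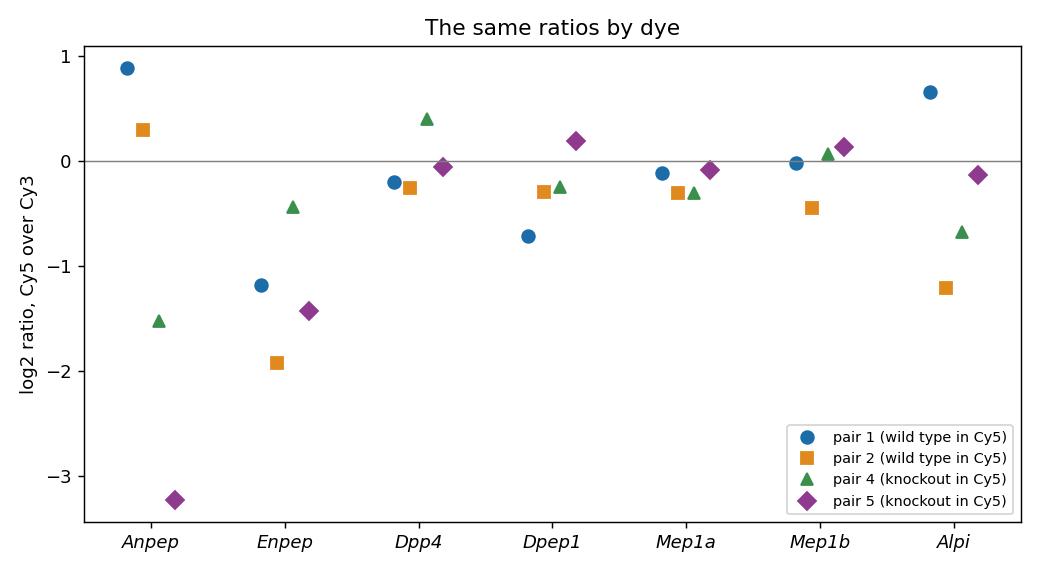
Log2 ratio of the sample in Cy5 over the sample in Cy3 (vertical axis) of the 7 enzymes, with 1 marker per array. In pairs 4 and 5 this is knockout over wild type, and in pairs 1 and 2 it is that ratio with its sign turned. Enpep lies below 0 on all 4 arrays, from -1.92 to -0.44, while Anpep lies above 0 in pairs 1 and 2 and below it in pairs 4 and 5.

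Dpep1 encodes a membrane-anchored dipeptidase that splits dipeptides and also acts on leukotriene D4. Its probe (A_51_P227345, gene on chromosome 8) read 15.48, 14.81, 14.58 and 15.09 in the knockout samples, against 14.76, 14.51, 14.82 and 14.90 in the wild-type samples. The ranges overlapped, with the highest value in the knockout sample of pair 1 and the knockout lower only in pair 4. The mean log2 ratio was 0.24 ± 0.393 (SD, n = 4), with a limma 95% interval from -0.13 to 0.61 and an adjusted p of 0.673.

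Dpp4 encodes dipeptidyl peptidase 4, or CD26, which removes dipeptides from the amino end of peptides such as the incretin hormones. The brightest of its 3 probes (A_51_P467110, gene on chromosome 2) read 11.32, 11.39, 11.16 and 11.34 in the knockout samples, against 11.13, 11.13, 10.76 and 11.40 in the wild-type samples. The knockout was slightly higher in pairs 1, 2 and 4 and slightly lower in pair 5. The mean log2 ratio was 0.20 ± 0.191 (SD, n = 4), with a limma 95% interval from -0.12 to 0.52 and an adjusted p of 0.685. The next probe (A_52_P443578) had ratios of 0.22, 0.33, 0.43 and -0.02, the same signs in every pair. The dimmest probe (A_52_P417368) had -0.14, 0.30, 0.01 and -0.18 with a mean of -0.0030, so it did not share the sign in pair 1. With pair 5 left out, the 3 knockout levels of the brightest Dpp4 probe lay above the 3 wild-type levels, against 4.71% of all genes in that direction. The same held for the next probe, but on the dimmest probe the levels overlapped. This comparison was chosen after the values of pair 5 were seen.

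Mep1a and Mep1b encode the alpha and beta subunits of meprin, a metalloprotease of the astacin family that is abundant in the intestine and kidney. The alpha subunit can be secreted, and the beta subunit holds the complex in the membrane. The Mep1a probe (A_51_P414915, gene on chromosome 17) read 15.52, 15.27, 15.18 and 15.54 in the knockout samples, against 15.41, 14.97, 15.48 and 15.62 in the wild-type samples. It was saturated in 1 wild-type sample, that of pair 1, so this value is a lower limit and the ratio of pair 1 is an upper limit. The mean log2 ratio of Mep1a was 0.0076 ± 0.258 (SD, n = 4) with a limma 95% interval from -0.26 to 0.28 and an adjusted p of 0.994, and its sign turned with the scaling, to -0.09 with Agilent's processed signals and -0.17 with median centring.

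The Mep1b probe (A_51_P390508, gene on chromosome 18) read 12.55, 12.35, 12.45 and 13.21 in the knockout samples, against 12.53, 11.91, 12.39 and 13.07 in the wild-type samples. Both samples of pair 5 were higher than the other samples of their genotype, and the ranges overlapped. The ratios of 0.02, 0.44, 0.06 and 0.14 were all positive but small outside pair 2. Their mean was 0.17 ± 0.192 (SD, n = 4), with a limma 95% interval from -0.14 to 0.48 and an adjusted p of 0.729.

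Alpi encodes the intestinal alkaline phosphatase, which is bound to the membrane by a lipid anchor. The brighter of its 2 probes (A_51_P423813, gene on chromosome 1) read 10.11, 11.12, 9.43 and 11.01 in the knockout samples, against 10.77, 9.91, 10.10 and 11.14 in the wild-type samples. The knockout was higher in pair 2 by 1.20 on the log2 scale and lower in the other 3 pairs, by ratios of -0.66, -0.67 and -0.13. The mean was -0.07 ± 0.883 (SD, n = 4) with a limma 95% interval from -1.03 to 0.90 and an adjusted p of 0.976. The second probe (A_52_P636999) had ratios of -0.61, 0.70, -0.05 and 0.05 and a mean of 0.02, with the sign of the first probe in pairs 1, 2 and 4 and the opposite sign in pair 5. Mammalian alkaline phosphatases are close copies, so the probe of one may also read another. Akp3, a second intestinal alkaline phosphatase of the mouse, was at -0.0103 ± 0.0980 (SD, n = 4). Its levels lay only between 6.38 and 6.56, about that of Tlr2 in the knockout sample of pair 2 (6.54). A ratio near 0 at such a low signal says little about Akp3.

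**Figure D3:**
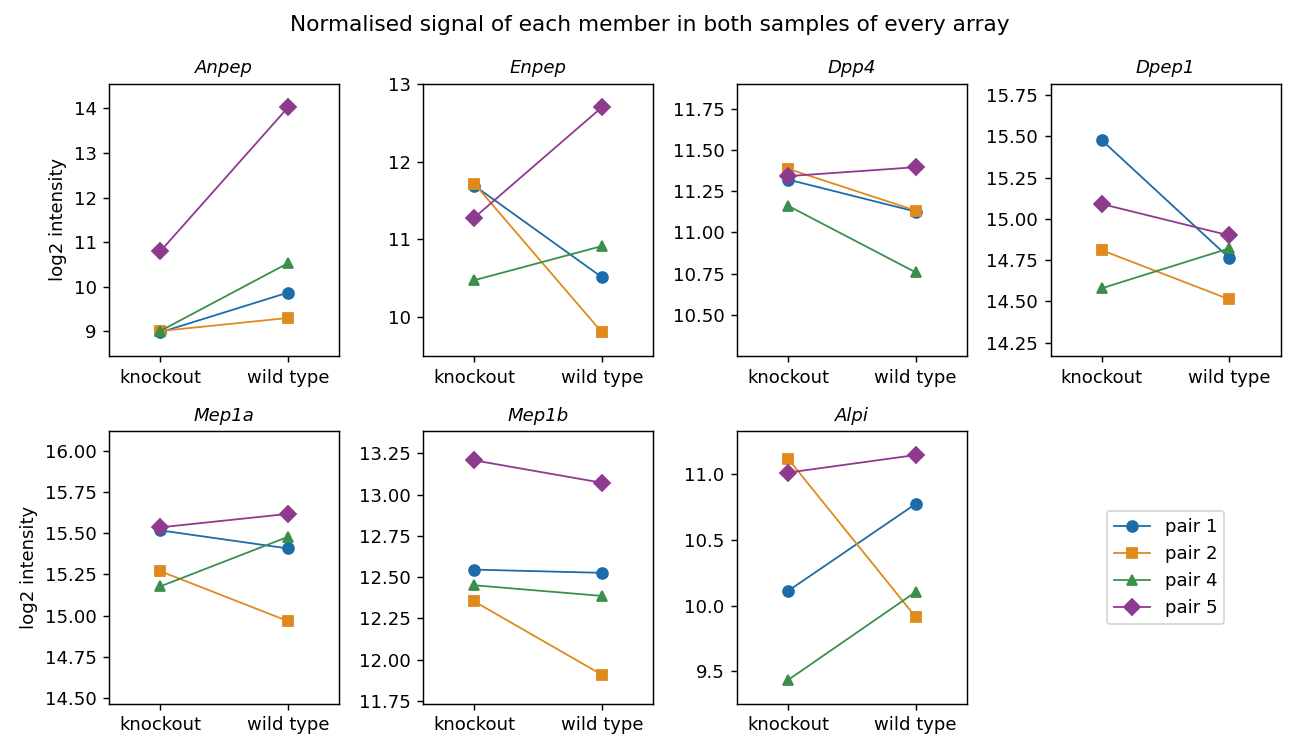
Normalised log2 intensity (vertical axis, with its own range in each panel) of the probe tested for each of the 7 enzymes, in the 4 knockout samples on the left and the 4 wild-type samples on the right, with a line joining the samples of a pair. The wild-type sample of pair 5 stands highest for Anpep (14.02) and Enpep (12.70), and in no panel do the genotypes lie wholly apart.

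The wild-type sample of pair 5 was the highest of the 8 samples for 4 of the 6 genes with no saturated probe, Anpep, Dpp4, Enpep and Alpi, against 8.32% of all genes. For Dpp4 and Alpi this depended on the probe. On the brightest Dpp4 probe the knockout sample of pair 2, at 11.39, was almost level with that sample, at 11.40, and on both other Dpp4 probes it was higher, at 10.16 against 10.12 and at 7.52 against 7.25. On the second Alpi probe the knockout sample of pair 2, at 8.04, lay above the wild-type sample of pair 5, at 7.90. Anpep and Enpep have 1 probe each, and the rank of Mep1a is not known because of its saturated value. Several markers of small intestinal enterocytes were high in that sample too. Of 13 such genes all were measured, and of the 12 without saturation 7 had their highest value there. In pair 5, 10 of the 12 were lower in the knockout than in the wild-type sample. The others, Rbp2 and Slc5a1, were higher, with log2 ratios of 0.28 and 0.44. Of all 14397 genes without saturation, 8.37% had their highest value there and 6982 were lower in the knockout of pair 5. The median log2 ratio of the enterocyte markers was -0.25, 0.05, -0.09 and -0.58 in pairs 1, 2, 4 and 5. The log2 of their summed intensity lay between 13.68 and 14.53 in the knockout samples and between 13.78 and 14.62 in the wild-type samples. It was highest in the wild-type sample of pair 5, at 14.62, and next in the knockout sample of pair 1, at 14.53. Their part in the values of the 7 enzymes was not tested. Adipocyte markers also differed in pair 5, with a median log2 ratio of 2.74 over 6 genes, against -0.29, 0.04 and 1.07 in pairs 1, 2 and 4. The log2 of their summed intensity in pair 5 was 15.42 in the knockout sample and 13.31 in the wild-type sample, and their part was not tested either. Over 7 absorptive colonocyte markers without saturation, the median log2 ratio was -0.55, 0.81, 1.07 and 0.13 in the 4 pairs. The part of these colonocyte markers was likewise not tested.

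The genes whose 4 ratios lay nearest to those of Anpep were found by Euclidean distance over the 4 arrays, on which the median gene lay at 3.72. The nearest was Apoa1, the main apolipoprotein of high-density lipoprotein and one of the enterocyte markers, at a distance of 0.28. Apoa1 read 6.58, 6.54, 6.38 and 7.93 in the knockout samples, against 7.61, 6.99, 7.84 and 11.33 in the wild-type samples. As for Anpep, which it was chosen to resemble, it had the knockout lower in each pair, and both samples of pair 5 were the highest of their genotype. Next came Defa23 at 0.704, Defa21 at 0.834, Defa6 at 0.875, Defa4 at 0.912 and Bcl2l15 at 0.927. The 4 Defa genes encode alpha-defensins, antimicrobial peptides that Paneth cells of the small intestine secrete, and they are near copies whose probes may share signal. Defa6 read 6.35, 6.28, 6.09 and 8.45 in the knockout samples, against 7.53, 6.88, 7.52 and 12.44 in the wild-type samples. Outside pair 5 the knockout levels of Apoa1 and the 4 Defa genes were about as low as those of Akp3, or lower. Low signal may limit their ratios there, unlike those of Anpep, and this was not tested. All 6 genes were lower in the knockout by the submitters' rule, which their choice by nearness to Anpep largely fixes, and each had an adjusted p of 0.594 in limma. Nearness over 4 arrays is a description, and for Anpep and each of these 6 genes the ratio farthest from 0 was that of pair 5.

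**Figure D4:**
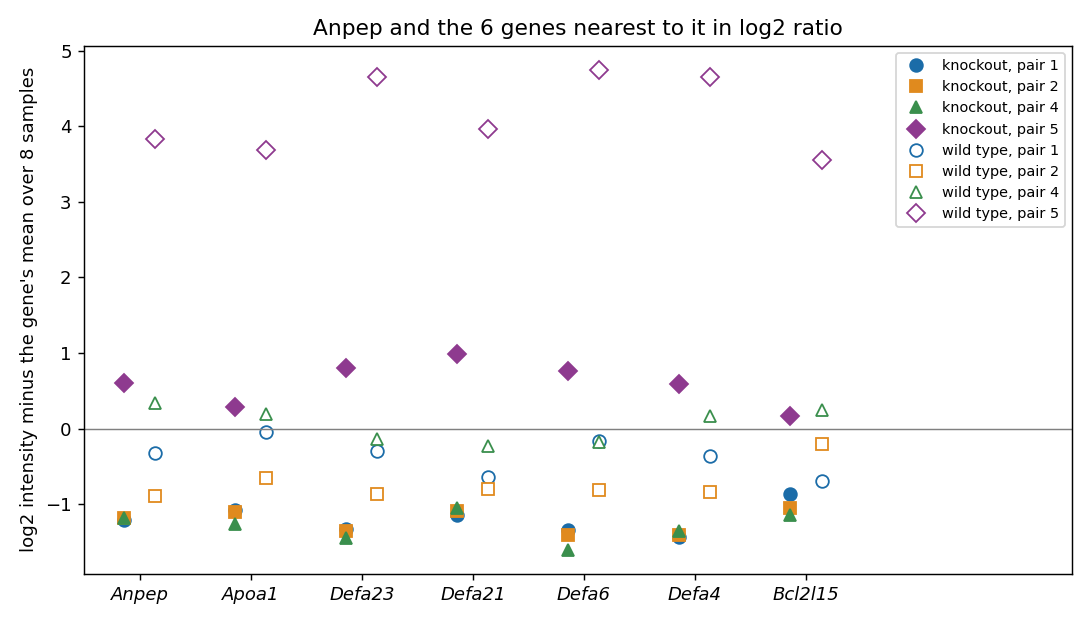
Log2 intensity of Anpep and of the 6 genes nearest to it, each minus its own mean over the 8 samples (vertical axis), with knockout samples as filled markers on the left and wild-type samples as open markers on the right of each gene. The open diamond of the wild-type sample of pair 5 stands far above the rest for all 7 genes, and the filled diamond of the knockout sample of pair 5 is the highest knockout sample.

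Of 20 other brush border hydrolases, 15 were measured and 14 had no saturated probe. Their median log2 ratio was 0.06, 0.16, 0.07 and -0.03 in the 4 pairs, and 1 was higher and 0 lower by the submitters' rule. An unadjusted p under 0.05 in limma was reached by 2 (Mme and Ggt1), against 4.26% lower and 3.86% higher among all genes. Mme encodes neprilysin, a membrane endopeptidase of the same surface. It read 9.02, 8.83, 7.96 and 7.87 in the knockout samples, against 6.64, 6.59, 6.69 and 7.09 in the wild-type samples, with no overlap and an adjusted p of 0.446 in limma. Its dimmer probe had a mean log2 ratio of 1.04, against 1.67 for this one, and was well above background in only 2 wild-type channels. Mme and Anpep thus lay on opposite sides of 0 on all 4 arrays. In the authors' deposited table of increased transcripts, Mme had plain ratios, not log2, of 13.2, 11.2, 4.38 and 4.24, with an average of 8.27. That average is a larger fold than the mean log2 ratio of 1.67 gives. The wild-type levels of Mme were low, and the cause of the difference was not tested. Mme, like Enpep, lies on chromosome 3, as does Tlr2, and the part of that shared chromosome was not tested. Sis, the sucrase-isomaltase, had ratios of 1.46, 0.14, -1.90 and -1.82, and Xpnpep2, a membrane aminopeptidase that cuts before proline, had 1.77, 0.29, -0.78 and -1.48. Both were positive in pairs 1 and 2 and negative in pairs 4 and 5, as Enpep was, and Xpnpep2 is named for this. In all, 3 of the 14 hydrolases were lower in Cy5 on all 4 arrays, these and Lct, the lactase, against 5.49% of all genes. Lct counted only through small ratios of 0.29, 0.06, -0.04 and -0.02, at low levels between 6.37 and 6.66. Ggt1, which splits glutathione outside the cell, had a mean of -0.48 ± 0.743 (SD, n = 4).

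Of 26 relatives of the 7 enzymes by protein family, 19 were measured, and 0 passed the submitters' rule in either direction. Their means lay between -0.44 and 0.29, and 3 had an unadjusted p under 0.05 in limma. Among all genes 4.26% were lower and 3.86% higher at that threshold. The other measured relatives with the largest means were Dpp7 at -0.39 and Rnpep at -0.32. Those with the p under 0.05 were Lta4h, an aminopeptidase that also makes leukotriene B4, at -0.44, Prep, a cytosolic prolyl peptidase, at -0.26, and Rnpepl1 at 0.29. Anpep lay outside the range of these relatives, but only 0.17% of all genes had a larger absolute mean. Almost any list of this size would thus leave it outside, so this says little about the enzyme families. Several relatives, such as Akp3, also read at low signal. Of 13 transporters of peptides and amino acids, which take up what the peptidases release, 11 were measured and 0 passed the rule. Slc15a1, the main peptide transporter of the intestine, had ratios of -1.99, 0.89, 1.12 and 0.38, and Slc6a14, a broad amino acid transporter, had a mean of 0.88 ± 0.868 (SD, n = 4). Slc6a19, the neutral amino acid transporter, was at -0.16, 0.18, 0.14 and -1.38, with the wild-type sample of pair 5 the highest of the 8 samples. Of 15 genes of microvillus structure, 14 were measured, 10 without saturation, and 0 passed the rule. Anks4b, a scaffold of the links between microvilli, was positive on 4 arrays with a mean of 0.65 ± 0.336 (SD, n = 4). The gamma-glutamyl cycle list (12 of 12 measured) and the intestinal transcription factor list (15 of 16) had 0 genes past the rule, and the angiotensin list (11 of 12) had 1, Mme, which it shares with the hydrolases. Over all genes the rule took 0.762% as higher and 0.714% as lower.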

How the data were processed

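The authors deposited Agilent Feature Extraction files with the intensity of each spot in both channels as median signal, local background and processed signal, per the file headers. The headers give version 10.5.1.1 and the submitters' processing notes version 8.5.1.1. The log10 ratio of Cy5 over Cy3 in the same deposited files was only checked against the processed signals. Hit tables that the authors deposited give the ratio for each of 4 arrays, whose columns are not tied to samples. Their normalisation is not stated here by any header or label. The methylation arrays were not used here.

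Median intensity was background-corrected with limma 3.58.1 in R 4.3.3 (normexp, offset 50) and normalised by loess within each array, with control spots at weight 0. Control spots and spots marked as outliers were then left out, saturated spots were kept, and replicate spots were averaged. A probe was kept if at least 2 knockout or 2 wild-type channels read it as well above background. Of 41174 probes, 25114 had a symbol through a RefSeq gene table of GRCm38.p6 or, for 17, only from the authors' tables, and 21309 of them were kept. The brightest probe stood for its gene, which left 14701 genes. The log2 ratios of the 4 arrays, turned to knockout over wild type, were fitted with lmFit and eBayes, with the dye effect as intercept and Benjamini-Hochberg adjustment over all genes at 0.05. Levels are single-channel log2 intensities after Aquantile normalisation. List medians left out saturated probes, which marked 304 genes. The procedure was tested on simulated data.

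The members and lists were chosen with earlier results of these data known. The naming rule takes all 7 enzymes with every probe, Tlr2, up to 5 measured genes of each pathway list with the largest mean ratio and any that passed the submitters' rule, of which a part is given, and the 6 genes nearest to the enzyme with the largest mean. One gene that the rule names is not reported here, although it stays in the counts. Akp3, Lct, Xpnpep2, Slc15a1 and the genes with an unadjusted p under 0.05 were named after their values were seen, and so was the comparison without pair 5. The alternatives changed the background correction, scaling, filter, probe choice and dye term, or left out 1 pair. Promoter sequences of 6 members were searched.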

Additional observations from a re-analysis of the deposited data

Results flagged for a closer look

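The Anpep level of the knockout sample of pair 5, at 10.80, lay far from the other 3 knockout samples, which were between 8.98 and 9.01. The wild-type sample of the same pair was at 14.02, so both samples of pair 5 were the highest of their genotype. The dimmest Dpp4 probe (A_52_P417368) read 7.52 in the knockout sample of pair 2, against 7.02 to 7.07 in the other 3 knockout samples, and the other 2 probes of Dpp4 showed no such gap. Gaps were judged by Dixon's test at its 95% critical value, and 2 of 30 sets of 4 values passed it. Chance passes about 1 in 20 such sets.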

How the results depend on the processing

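Anpep, Dpep1, Dpp4, Enpep and Mep1b kept the sign of their fitted log2 ratio under each of 15 alternatives. None of the 7 genes passed an adjusted p of 0.05 in limma under any of those run. Sizes moved more: with 1 pair left out, Anpep lay between -1.91 and -1.06, Enpep between 0.06 and 0.55, Dpep1 between 0.13 and 0.35, Dpp4 between 0.08 and 0.31, and Mep1b between 0.06 and 0.27. Mep1a turned to -0.090 with Agilent's processed signals and -0.17 with median centring, and lay between -0.047 and 0.062 with 1 pair left out. Alpi lay between -0.53 and 0.40 with 1 pair left out, at 0.40 without pair 1 and 0.07 without pair 4. All values with 1 pair left out are limma fits with the dye term, and not plain means of the remaining arrays. The array is the block that pairs the samples, and without it (single channels, no replicate block) Anpep was at -1.48 with a limma adjusted p of 0.683, within its range of 0.172 to 1. Over all genes limma called 0 in either direction, but 1 lower with no background correction, with offset 16, with median centring and with the strict filter, 4 lower with processed signals, and 2 lower and 1 higher without the dye term and likewise without the replicate block. The submitters' rule took 112 genes as higher and 105 as lower, but 291 and 269 with processed signals, 45 and 293 with median centring, and 181 and 164 with every probe separate. With 1 pair left out it took 93 to 388 genes as higher and 84 to 495 as lower, with the most of both without pair 1. The cause was not tested. Each pair holds 1 sample of each genotype, so 1 pair can move any mean.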
